A study of Homo sapiens with 12 samples.

Results

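Histone lysine and arginine modifiers are the enzymes that add methyl groups to histone side chains and the enzymes that take them off again. Their mRNAs were followed in HEK293T cells, a human embryonic kidney line carrying the SV40 large T antigen, and the members were chosen by gene symbol. All 37 symbols were found among the 23615 of both deposited expression tables, and all 37 were expressed above the filter of 1 FPKM used for testing, as were 12183 genes in all. They comprise 15 demethylases and 22 methyltransferases, the latter with 17 lysine methyltransferases or other SET domain proteins and 5 arginine methyltransferases. The study has 4 groups of 3 libraries. All cells of this line were given either CP25 at 2 μM, which the labels call a Dcp2 inhibitor, or an equal volume of the peptide storage buffer as vehicle, over 18 h. Actinomycin D at 5 μg/mL was then used to block transcription in all groups, and poly(A) RNA was sampled at 0 h and 2 h. Each treatment is thus present at both times. Replicates carry numbers from 1 to 3 with no word on whether separate flasks lie behind them, so every p-value rests on a spread between libraries that may be only technical.

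Methyl groups on histones mark active or silent chromatin according to the residue. Methylation of H3K4, H3K36 and H3K79 lies on active genes, and methylation of H3K9 and H3K27 on silent ones. SET domain enzymes and DOT1L write lysine marks, the PRMT family writes arginine marks, and the flavin-dependent KDM1A and the JmjC family of iron-dependent oxygenases erase lysine marks. These enzymes come in small families of paralogs that share a substrate, so a cell can lose the mRNA of one while its paralog persists. Dcp2 removes the 5′ cap of mRNAs on their way to degradation, and actinomycin D shows how fast existing mRNAs disappear because no new ones replace them.

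One sequence feature linked to short mRNA life is the AU-rich element, built from AUUUA pentamers in the 3′ UTR, written here in DNA letters as ATTTA. The 30-base stretches of 3′ UTR of 5 members are printed. KDM6A, KDM5A and SETDB2 hold the most pentamers in a stretch, 3 each, and kept very different shares of their mRNA. JMJD1C holds 2, as do KDM6B and SETD7, which are not printed. DOT1L holds 1, inside the nonamer TTATTTATT, a stricter form of the element. The stretches are read from GENCODE 29 transcripts on GRCh38, not from the hg19 build of the expression tables, 5′ to 3′. Pentamers are in capitals, or in DOT1L the nonamer.
JMJD1C: attttcaaaaggtgtaATTTATTTAaaatt
KDM6A: aATTTAcactATTTAtaaatacatATTTAt
KDM5A: cttacatATTTATTTAcaATTTAtcagggt
SETDB2: ctgtacaATTTAtaATTTATTTAcaaatta
DOT1L: ggaaaaaaccTTATTTATTcaaacagtgca
The JMJD1C stretch lies at chr10:63167430-63167459, minus strand. The KDM6A stretch lies at chrX:45112050-45112079, plus strand. That of KDM5A is at chr12:281235-281264, minus strand. For SETDB2 it is chr13:49492110-49492139, plus strand, and for DOT1L chr19:2230747-2230776, plus strand. KDM6A, KDM5A and SETDB2 each hold 3 pentamers in 30 bases. In vehicle, KDM6A stood at 34.1% of its 0 h FPKM after 2 h, KDM5A at 77.8% and SETDB2 at 90.4%. DOT1L, the only member with the nonamer, stood at 63.6%.

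The libraries of 0 h held an estimated 12.8 to 21.5 × 10⁶ fragments each, and those of 2 h an estimated 21.5 to 28.7 × 10⁶. The member with the fewest fragments in a library had an estimated 231 to 526 of them, so by this estimate no member was near the counting limit. Of the 7 marker genes fixed for HEK293T, all exceeded 1 FPKM in vehicle at 0 h, from LHX1 at 1.58 FPKM to VIM at 189 FPKM. Among 12 markers of other cell types, COL1A1 reached 3.51 FPKM and the rest stayed below 1 FPKM, with CD3E, KRT5, KRT14 and CDH5 listed at 0 there. The times are in separate tables, so a level at 2 h against 0 h also compares one table with the other. Such ratios are given below without a test, as log2 of FPKM + 1, 2 h minus 0 h, together with the percentage of the 0 h mean FPKM that was left. FPKM is a share of the library, so under a complete block a value above its 0 h level is a decline slower than that of the average transcript. Completeness of the block was not tested. The scale matters: the median over all tested genes was −0.18 in vehicle and −0.16 in CP25 as deposited, and 0.17 in both when each library was centred on its own median.

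Over the 2 h block the histone modifiers spread from 22.4% of the 0 h level left, in SETD1B with CP25, to 129.9%, in PRMT3 with CP25. SETD1B, JMJD1C, SETD1A, KDM6A and KDM2A, 5 of 37 members, lay below −1 on the log2 scale under both treatments. Of all tested genes, 7.26% were below −1 in vehicle, 7.22% in CP25 and 6.16% in both. In vehicle 23 of 37 members had all their 2 h libraries below all their 0 h libraries, against 46.0% of all tested genes, and in CP25 22 of 37 did, against 44.0%. The opposite, all 2 h libraries above all 0 h libraries, held for 2 members in vehicle, against 15.0% of genes, and 3 in CP25, against 15.5%. The members' median ratio was −0.25 in vehicle and −0.27 in CP25, which is −0.08 and −0.11 relative to the median of all tested genes. Its sign depends on the scale: centred on library medians it was 0.09 and 0.05, while the distance from all genes stayed the same by construction. Centring also left 4 of these 5 genes below −1, with KDM2A at −0.83 in vehicle and −0.85 in CP25.

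**Figure D1:**
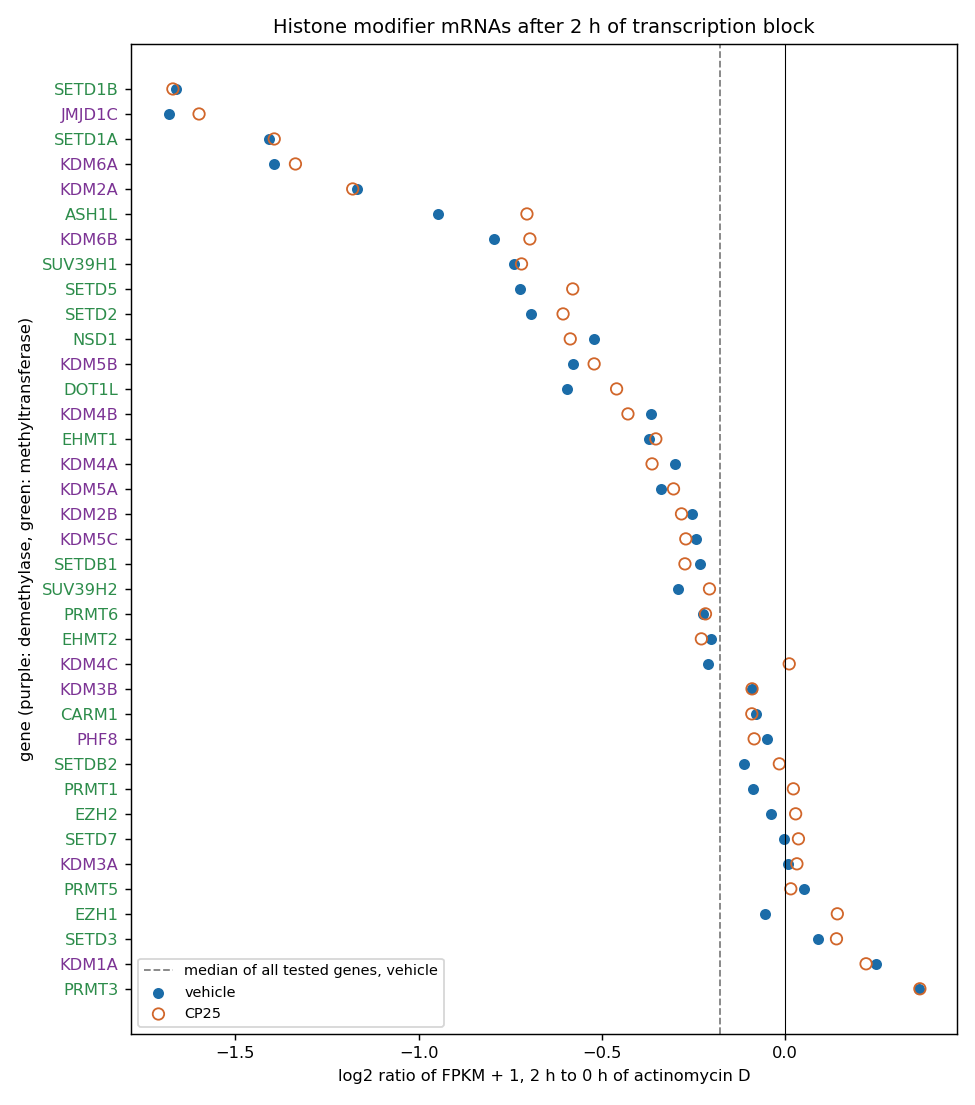
Log2 ratio of FPKM + 1, 2 h to 0 h of actinomycin D, for each of the 37 members in vehicle (filled) and CP25 (open), ordered by the mean of both; purple names are demethylases and green names methyltransferases, and the dashed line is the vehicle median of all tested genes. The 5 genes at the top lie below −1 in both treatments, and PRMT3 and KDM1A lie farthest above 0.

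Among the demethylases of H3K9, JMJD1C, a JmjC protein of the KDM3 family, had the lowest ratio of the erasers. Its libraries read 9.64, 7.44 and 7.79 FPKM in vehicle at 0 h and 1.63, 2.01 and 2.02 FPKM at 2 h. With CP25 they read 8.81, 7.40 and 7.52 FPKM at 0 h and 1.77, 2.10 and 1.93 FPKM at 2 h. No 2 h library came near a 0 h library, and the mean stood at 22.7% (vehicle) and 24.5% (CP25) of its 0 h value. With so low a level at 2 h, the pseudocount bears on the log2 ratio, which was −1.68 in vehicle and −1.60 in CP25 with 1 FPKM added and −2.08 and −1.97 with 0.1 FPKM added. Its relatives KDM3A and KDM3B, demethylases of the lower methylation states of H3K9, had higher ratios. KDM3A read 16.3, 19.1 and 16.8 FPKM in vehicle at 0 h and 17.9, 14.6 and 20.3 FPKM at 2 h. In CP25 it read 16.2, 20.9 and 15.7 FPKM at 0 h and 20.8, 15.2 and 18.1 FPKM at 2 h. Its libraries at both times overlapped in each treatment, and the spread within a group exceeded the difference between times. KDM3B stood at 93.9% (vehicle) and 94.0% (CP25), and also overlapped. PHF8, which binds trimethylated H3K4 through a PHD finger and removes H3K9 and H4K20 methylation, read 19.7, 19.1 and 19.4 FPKM in vehicle at 0 h and 16.7, 21.5 and 18.2 FPKM at 2 h. With CP25 the values were 19.7, 18.5 and 19.8 FPKM at 0 h and 17.8, 20.2 and 16.7 FPKM at 2 h. The 2 h libraries of PHF8 lay on both sides of the 0 h libraries.

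The H3K27 demethylases, which take the Polycomb mark off, were both lower at 2 h. KDM6A (UTX) read 20.2, 15.0 and 15.6 FPKM in vehicle at 0 h and 5.21, 6.39 and 5.75 FPKM at 2 h. In CP25 it read 17.9, 14.9 and 15.0 FPKM at 0 h and 5.58, 5.50 and 5.97 FPKM at 2 h. All 6 libraries at 2 h lay below all 6 at 0 h, and 34.1% (vehicle) and 35.7% (CP25) was left. Vehicle replicate 1 and CP25 replicate 1 were the highest at 0 h. KDM6B (JMJD3), the inducible enzyme of the pair, went from 7.13 ± 0.249 FPKM to 3.72 ± 0.658 FPKM in vehicle (SD, n = 3), which left 52.1% (vehicle) and 55.9% (CP25).

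KDM2A and KDM2B, CpG island binding proteins that demethylate H3K36, differed. For KDM2A the libraries read 23.4, 21.8 and 22.5 FPKM in vehicle at 0 h and 8.42, 10.4 and 9.78 FPKM at 2 h. CP25 gave 22.1, 20.0 and 21.0 FPKM at 0 h and 8.22, 9.58 and 8.40 FPKM at 2 h. The 0 h and 2 h libraries were far apart, with 42.1% (vehicle) and 41.5% (CP25) left. KDM2B, a subunit of a Polycomb repressive complex, kept 82.9% (vehicle) and 81.1% (CP25).

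The H3K9 and H3K36 demethylases of the KDM4 family were moderately lower. KDM4A stood at 80.6% (vehicle) and 77.2% (CP25), and KDM4B at 75.4% (vehicle) and 71.5% (CP25). KDM4C is the member with the smallest p in the CP25 comparisons and is described there, and its level was 84.4% (vehicle) and 101% (CP25) of that at 0 h. Among the erasers of H3K4, the KDM5 family was graded: KDM5B stood at 65.5% (vehicle) and 68.3% (CP25), KDM5A at 77.8% (vehicle) and 80.1% (CP25) and KDM5C at 84.3% (vehicle) and 82.7% (CP25). KDM1A (LSD1), the flavin enzyme that works with CoREST and the deacetylases HDAC1 and HDAC2, had the highest ratio of the erasers. Its libraries read 88.7, 104 and 103 FPKM in vehicle at 0 h and 115, 123 and 113 FPKM at 2 h. In CP25 they read 93.9, 104 and 108 FPKM at 0 h and 120.0, 124 and 113 FPKM at 2 h. All 2 h libraries of KDM1A lay above all 0 h libraries of the same treatment, at 119% (vehicle) and 117% (CP25). Vehicle replicate 1 and CP25 replicate 1 were the lowest at 0 h.

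Of the methyltransferases that write active marks, the SET1 pair had the lowest ratios. SETD1A and SETD1B are the catalytic subunits of complexes that trimethylate H3K4 at promoters. SETD1A read 25.3, 22.6 and 24.7 FPKM in vehicle at 0 h and 7.33, 9.75 and 8.54 FPKM at 2 h. With CP25 it read 25.2, 20.9 and 22.8 FPKM at 0 h and 7.02, 9.20 and 8.19 FPKM at 2 h. Its 2 h libraries all lay below 10 FPKM and its 0 h libraries all above 20 FPKM, with 35.3% (vehicle) and 35.4% (CP25) left. SETD1B read 9.18, 7.03 and 9.03 FPKM in vehicle at 0 h and 1.56, 2.32 and 2.03 FPKM at 2 h. With CP25 it read 8.63, 6.77 and 7.60 FPKM at 0 h and 1.60, 1.90 and 1.64 FPKM at 2 h. SETD1B had the lowest mean ratio of all 37 members, and 23.5% (vehicle) and 22.4% (CP25) was left. On the log2 scale its ratio was −1.66 in vehicle and −1.67 in CP25, and −2.04 and −2.09 with 0.1 FPKM added. Only 1.44% of tested genes had a lower or equal mean ratio.

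The H3K36 methyltransferases were lower to a lesser degree. ASH1L, a Trithorax-group protein that dimethylates H3K36, read 11.0, 7.88 and 8.43 FPKM in vehicle at 0 h and 3.90, 4.66 and 4.06 FPKM at 2 h. In CP25 it read 8.61, 7.45 and 7.52 FPKM at 0 h and 4.37, 4.73 and 4.20 FPKM at 2 h. Vehicle replicate 1 at 0 h was the highest of these, and no 2 h library reached a 0 h library. Its mean stood at 46.2% (vehicle) and 56.4% (CP25). SETD2, which trimethylates H3K36 behind elongating polymerase, stood at 59.6% (vehicle) and 63.8% (CP25), and NSD1, an H3K36 dimethylase, at 69.0% (vehicle) and 65.8% (CP25). DOT1L, the H3K79 methyltransferase, which has no SET domain, read 14.5, 12.1 and 13.9 FPKM in vehicle at 0 h and 8.02, 8.48 and 9.23 FPKM at 2 h. With CP25 it read 13.2, 11.6 and 11.5 FPKM at 0 h and 8.41, 8.92 and 8.22 FPKM at 2 h. Its times did not overlap in either treatment, with 63.6% (vehicle) and 70.4% (CP25) left. SETD7, an H3K4 monomethylase that also modifies other proteins, stood at 101% (vehicle) and 103% (CP25) and overlapped. Of these 7 enzymes of active marks, the 6 other than SETD7 were lower at 2 h without overlap in both treatments, beside the 46.0% and 44.0% of all genes given above, and the median ratio of the 7 was −0.69 in vehicle and −0.61 in CP25.

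The 8 writers of silencing marks had a median ratio of −0.22 in each treatment, and none was below −1. SUV39H1 and SUV39H2 trimethylate H3K9 in heterochromatin. SUV39H1 was the lowest of the 8, with 15.6 ± 1.14 FPKM at 0 h and 8.96 ± 1.10 FPKM at 2 h in vehicle (SD, n = 3), or 57.5% (vehicle) and 58.2% (CP25) left. SUV39H2 kept 81.0% (vehicle) and 86.3% (CP25). The G9a heterodimer, which dimethylates H3K9, kept 76.0% (vehicle) and 77.1% (CP25) for EHMT1 (GLP) and 86.3% (vehicle) and 84.8% (CP25) for EHMT2 (G9a). SETDB1, the H3K9 methyltransferase recruited by KAP1, kept 84.3% (vehicle) and 81.8% (CP25), and its relative SETDB2 90.4% (vehicle) and 98.5% (CP25). EZH2, the main catalytic subunit of Polycomb repressive complex 2, stood at 97.4% (vehicle) and 102% (CP25); its 2 h libraries lay just below its 0 h libraries in vehicle and overlapped with them in CP25. Its paralog EZH1 read 11.0, 7.15 and 6.27 FPKM in vehicle at 0 h and 8.55, 6.37 and 8.05 FPKM at 2 h. In CP25 EZH1 read 9.59, 6.77 and 5.74 FPKM at 0 h and 9.79, 7.31 and 7.32 FPKM at 2 h. Replicate 1 of EZH1 was the highest library in each of the 4 groups, and the times overlapped. Leaving out 1 library moved the EZH1 ratio between −0.20 and 0.16 in vehicle, so its sign rested on single libraries.

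SETD3 and SETD5 carry SET domains, but SETD3 is known to methylate actin at a histidine and the activity of SETD5 is debated. SETD3 read 31.1, 33.9 and 33.2 FPKM in vehicle at 0 h and 34.9, 36.1 and 33.6 FPKM at 2 h. With CP25 it read 31.4, 33.4 and 34.3 FPKM at 0 h and 36.3, 35.99 and 37.1 FPKM at 2 h. The times overlapped in vehicle and did not in CP25, where all 2 h libraries were higher. SETD5 kept 59.4% (vehicle) and 66.1% (CP25), without overlap.

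Of the 5 arginine methyltransferases, 0 were lower at 2 h without overlap in either treatment, beside 46.0% of all genes in vehicle and 44.0% in CP25; no test set them against the lysine enzymes, some of which also overlapped. PRMT3, a cytosolic enzyme that methylates a ribosomal protein, had the highest ratio of all members. It read 30.8, 35.4 and 36.4 FPKM in vehicle at 0 h and 46.1, 45.9 and 41.0 FPKM at 2 h. With CP25 it read 33.4, 36.6 and 36.4 FPKM at 0 h and 43.9, 47.8 and 46.6 FPKM at 2 h. All 2 h libraries of PRMT3 lay above all 0 h libraries, at 129.5% (vehicle) and 129.9% (CP25). PRMT1, the main asymmetric dimethylating enzyme, was the most abundant member at 179.9 ± 31.6 FPKM in vehicle at 0 h (SD, n = 3). PRMT5, the main symmetric dimethylating enzyme, had 114 ± 14.2 FPKM and CARM1 (PRMT4), a coactivator of nuclear receptors, 53.2 ± 5.24 FPKM. After 2 h PRMT1 stood at 93.2% (vehicle) and 101% (CP25), PRMT5 at 103% (vehicle) and 101% (CP25) and CARM1 at 94.5% (vehicle) and 93.8% (CP25). PRMT6, which methylates H3R2, stood at 85.3% (vehicle) and 86.0% (CP25), and its times overlapped as well. The median ratio of the 5 was −0.08 in vehicle and 0.02 in CP25, above the median of all tested genes. Of the arginine enzymes outside the members, PRMT10 (PRMT9) stood lower, at 64.8% (vehicle) and 64.3% (CP25). PRMT2 stood at 94.9% (vehicle) and 94.6% (CP25), and PRMT7 at 91.7% (vehicle) and 95.6% (CP25).

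**Figure D2:**
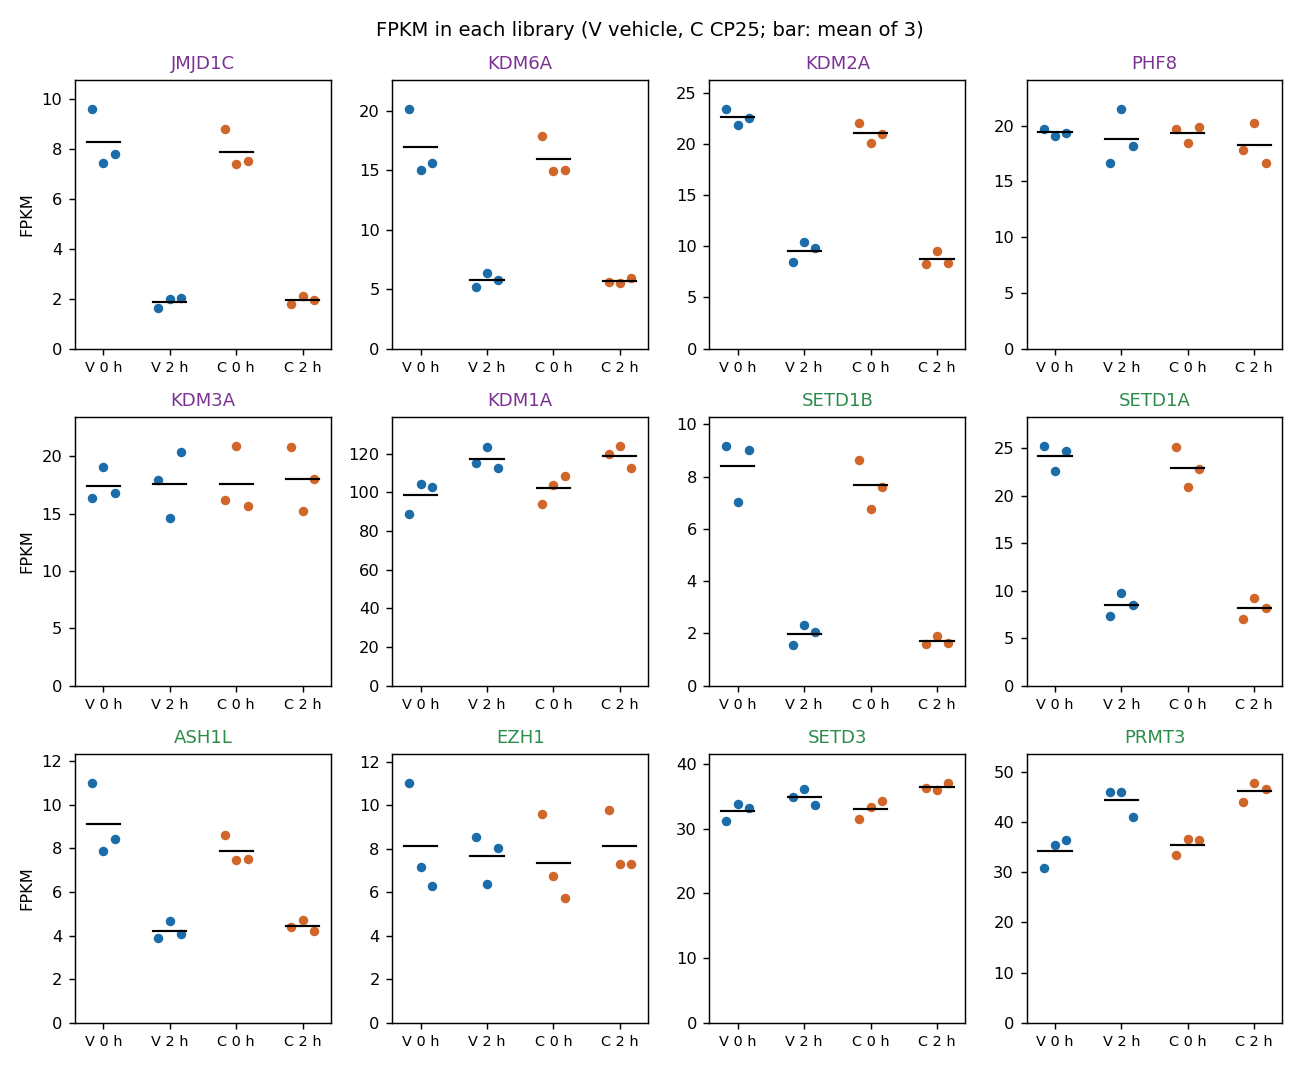
FPKM in each of the 12 libraries for the 3 members with the lowest and the 3 with the highest mean ratio in each class, with vehicle in blue, CP25 in orange and a bar at the mean of 3; each panel starts at 0 and has its own scale. JMJD1C, KDM6A, KDM2A, SETD1B, SETD1A and ASH1L have all 2 h libraries below all 0 h libraries, KDM1A and PRMT3 have all of them above within each treatment, and vehicle and CP25 lie side by side.

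Read as a class in each library, demethylases stood below methyltransferases, and by more at 2 h. The mean log2(FPKM + 1) of the 15 demethylases minus that of the 22 methyltransferases was −0.42, −0.39 and −0.43 in vehicle at 0 h, and −0.51, −0.56 and −0.46 at 2 h. With CP25 it was −0.40, −0.35 and −0.43 at 0 h, and −0.45, −0.55 and −0.55 at 2 h. Every 2 h library lay below every 0 h library. The arginine enzymes had the highest mean. Their mean was 6.03 ± 0.17 in vehicle at 0 h and 6.03 ± 0.07 at 2 h (log2(FPKM + 1), SD, n = 3). The 17 lysine methyltransferases and SET proteins went from 4.28 ± 0.06 to 3.78 ± 0.07, beside 4.27 ± 0.01 to 3.79 ± 0.06 for the demethylases. Without the arginine enzymes the gap was thus absent in vehicle at both times. The median ratio of these 17 was −0.37 in vehicle and −0.35 in CP25, lower than that of the demethylases. Median ratios of the 2 whole classes describe changes from 0 h to 2 h, not levels. They were −0.30 for demethylases and −0.23 for all 22 methyltransferases in vehicle, and −0.30 and −0.22 in CP25. Centred on library medians these became 0.04 and 0.12 in vehicle and 0.02 and 0.10 in CP25, so the sign of either class median depends on the scale. Leaving out 1 library moved the vehicle difference of the class medians between −0.11 and 0.02, which includes a change of sign.

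A factor common to a library cancels in the ratio of 2 genes, so paralogs can be compared between times without the table scale. For 16 pairs from 10 paralog families the log2 ratio of FPKM was compared between times with an exact permutation test, two-sided, that exchanges the times of libraries inside each treatment. There were 400 labellings and the smallest p they can give is 0.005. The time of the block and the table that holds it cannot be told apart in this test. Benjamini-Hochberg adjustment over the 16 pairs left 10 with an adjusted p under 0.05, and 7 of these had no overlap between times. The same ratio over every pair of the 12033 tested genes above 0 FPKM in all libraries did not overlap between times in 48.1% of pairs, and in 59.6% the exact p was 0.015 or less, the largest p among the 10 paralog pairs that passed. The counts of 7 and 10 of 16 pairs are near these shares, so shifts of this kind are not particular to paralogs. Exchanging same-numbered vehicle and CP25 libraries together leaves 20 labellings with a smallest p of 0.1, under which none of the 16 pairs can pass. The pairs were fixed by family, but the test was added after the ratios had been seen.

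The largest shifts separated JMJD1C from its KDM3 relatives. Log2 KDM3A over JMJD1C averaged 1.08 ± 0.30 in vehicle at 0 h and 3.22 ± 0.31 at 2 h, and 1.15 ± 0.32 and 3.21 ± 0.35 in CP25 (SD, n = 3). The mean shift over both treatments was 2.10 (exact permutation p = 0.005, adjusted p = 0.0114), and for KDM3B over JMJD1C it was 1.99 with the same p-values. KDM3A over KDM3B moved by 0.11 (exact permutation p = 0.445, adjusted p = 0.507), within the spread of the libraries. KDM2A over KDM2B moved by −0.97 (exact permutation p = 0.005, adjusted p = 0.0114), from 0.52 ± 0.11 to −0.46 ± 0.11 in vehicle, so the more abundant of the pair at 0 h was the less abundant at 2 h. CP25 gave 0.41 ± 0.09 and −0.56 ± 0.10 for the same pair.

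SETD1A over SETD1B moved by 0.62, with both genes among the lowest, and SUV39H1 over SUV39H2 by −0.53. KDM5B over KDM5C moved by −0.32 and EHMT1 over EHMT2 by −0.16. Each of these 4 pairs had an exact permutation p = 0.005 and an adjusted p = 0.0114, with no overlap between times. KDM6A over KDM6B moved by −0.62 and KDM4B over KDM4C by −0.33 (exact permutation p = 0.01, adjusted p = 0.0178 for each). By treatment, KDM4B over KDM4C moved by −0.17 in vehicle and −0.50 in CP25, and KDM6A over KDM6B by −0.59 and −0.64. KDM5A over KDM5B moved by 0.23 (exact permutation p = 0.015, adjusted p = 0.024). In these 3 pairs single libraries of the times overlapped. The remaining shifts did not pass after adjustment. SETDB1 over SETDB2 moved by −0.19 (exact permutation p = 0.045, adjusted p = 0.0655) and KDM4A over KDM4C by −0.23 (exact permutation p = 0.07, adjusted p = 0.0933). By treatment, SETDB1 over SETDB2 moved by −0.10 in vehicle and −0.27 in CP25, and KDM4A over KDM4C by −0.07 and −0.39. KDM5A over KDM5C moved by −0.09 (exact permutation p = 0.12, adjusted p = 0.148), KDM4A over KDM4B by 0.10 (p = 0.475, adjusted p = 0.507) and EZH1 over EZH2 by 0.06 (p = 0.765, adjusted p = 0.765). With 1 library left out, between 9 and 11 pairs passed.

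**Figure D3:**
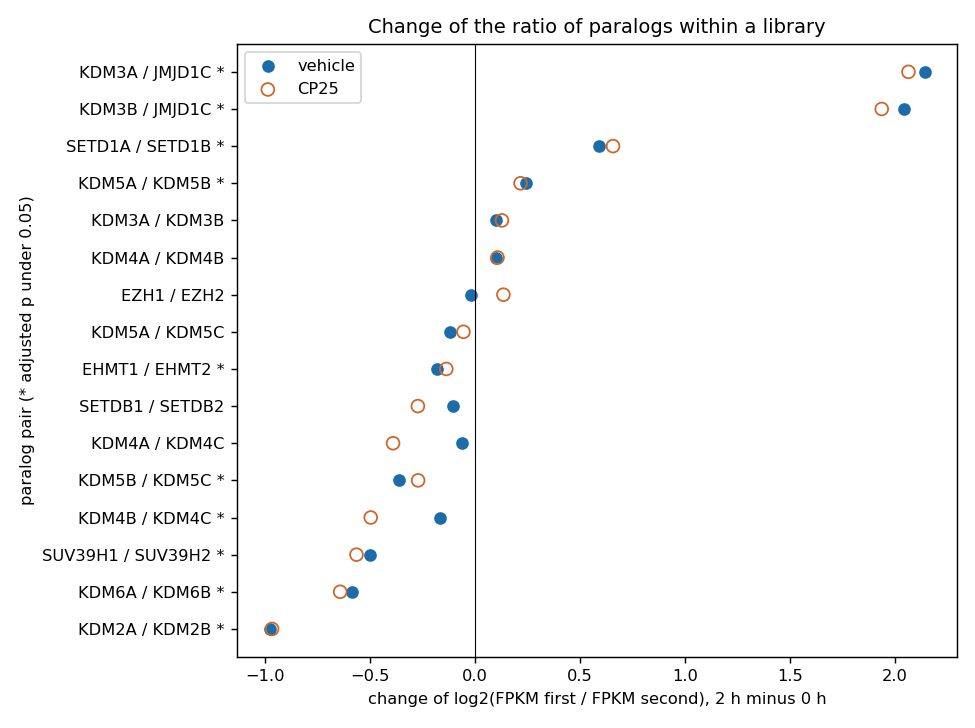
Change of the log2 ratio of FPKM between 2 paralogs, 2 h minus 0 h, in vehicle (filled) and CP25 (open) for 16 pairs; a star marks the 10 pairs with an adjusted p under 0.05. KDM3A and KDM3B over JMJD1C shift most, near 2, and KDM2A over KDM2B shifts to −0.97.

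Most members have long coding sequences, a feature the choice of symbols did not use. Their median coding length was 3630 bases, against 1407 bases over the 10846 tested genes that have GENCODE 29 features, which is 89.0% of those tested. Across the 37 members the mean ratio of vehicle and CP25 was related to coding length with a Spearman rho of −0.67. Over all genes with features rho was −0.24. Both are descriptions across genes that share the libraries. The 12 members with at least 4500 coding bases had a median ratio of −0.60 and included JMJD1C, SETD1B and SETD1A, while the 562 genes of that length had a median of −0.33. The 12 members of 3000 to 4500 bases had −0.30, including KDM6A and KDM2A, against −0.28 for all such genes. The 8 members of 1500 to 3000 bases, namely PRMT3, KDM1A, SETD3, PRMT5, CARM1, EZH1, EZH2 and SETDB2, had 0.04, against −0.24. The 5 shortest, which include SUV39H1 with 1236 coding bases, had −0.22, against −0.09. Length did not order every member: KDM3B, with 5283 coding bases, stood at 93.9% (vehicle) and 94.0% (CP25). The demethylases had a median coding length of 4008 bases and the methyltransferases 2247 bases, and the part of length in the class values was not tested.

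**Figure D4:**
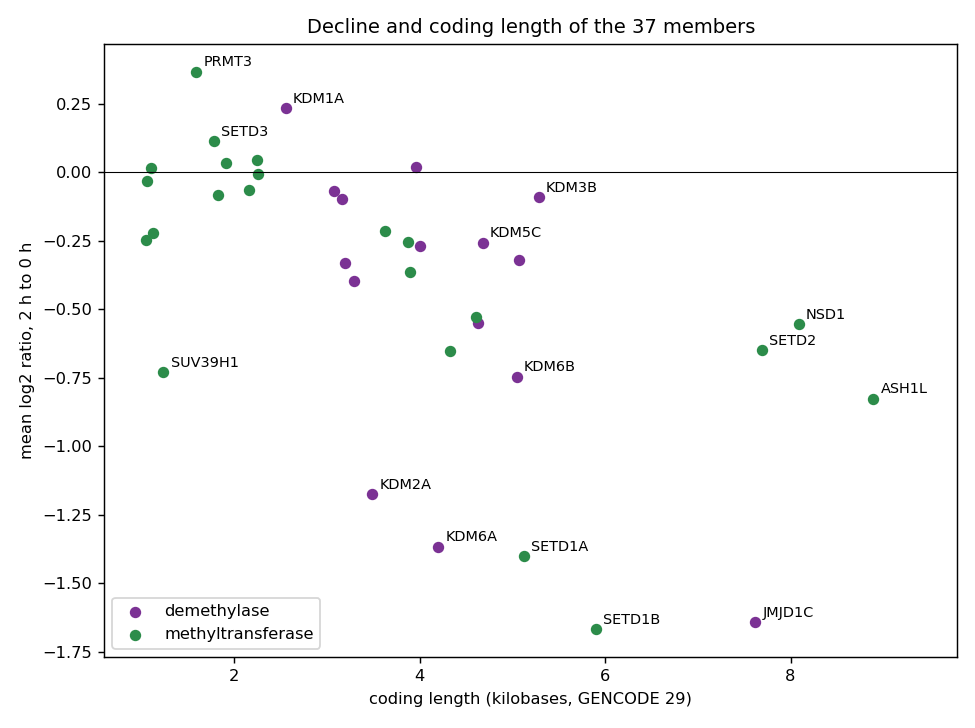
Mean log2 ratio of vehicle and CP25, 2 h to 0 h, against coding length in kilobases for the 37 members, with demethylases in purple and methyltransferases in green. Members below 3 kilobases run from −0.73 for SUV39H1 to 0.37 for PRMT3, and the 5 genes below −1 have 3486 to 7620 coding bases.

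The number of AU-rich pentamers was only weakly related to the ratio. At least 1 ATTTA lay in the 3′ UTR of 26 of the 36 members whose transcript lists one, against 71.6% of the 10757 such genes, and rho between the number of pentamers and the mean ratio was −0.14 over these 36 members. SETD7 had the most, 14, followed by KDM5A with 13, and both KDM5B and SETDB2 had 10. JMJD1C had 6, KDM6A 5, KDM2A 3 and SETD1A 1. Thus the crowded stretches printed above for KDM5A and SETDB2 belong to mRNAs that kept most of their level, and that of KDM6A to one that did not. The chosen SETD1B transcript lists no 3′ UTR. The nonamer TTATTTATT was in 8.76% of these genes and in DOT1L alone among the members. A match of letters is not a functional site.

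The wider pathway, in lists fixed by function, was read in the same way. Of 25 other lysine and arginine enzymes, all above the filter over the 12 libraries, the median ratio was −0.41 in vehicle and −0.47 in CP25. On the log2(FPKM + 1) scale 3 and 4 were below −1. The added 1 FPKM pulls ratios towards 0, most for low genes, so the counts of these lists miss some falls beyond 2-fold. KDM8 was not counted in vehicle with 37.8% left, nor were MLL, MLL3 and SETMAR with 45.7% to 48.7%. By the mean log2 ratio of both treatments the lowest was MLL5 (KMT2E), a PHD and SET protein, with 41.3% left in vehicle. By the percentage left, which no pseudocount enters, KDM4D with 25.5% and KDM8 with 37.8% were lower. The highest was KDM1B (LSD2), the paralog of KDM1A, with 134%. The 26 partner subunits of the enzyme complexes had −0.37 and −0.38, with none below −1. By the mean log2 ratio of both treatments they ran from JARID2, which helps recruit Polycomb repressive complex 2, with 52.1% left in vehicle to CLNS1A, a cofactor of PRMT5, with 141%, while in vehicle alone ATF7IP, a partner of SETDB1, was lower at 49.6%. The 10 acetyltransferases had −0.39 and −0.36, and 4 were below −1 in each treatment. Their lowest was the coactivator EP300 with 33.9% left in vehicle, and their highest HAT1, which acetylates newly made histone H4, with 138%. The deacetylases had 14 of 15 genes above the filter and a median of −0.15 and −0.22, none below −1. In vehicle they ran from SIRT7 with 50.3% to HDAC1 with 126%, and in CP25 from HDAC4 with 48.4% to HDAC2 with 124%. In none of the 3 limma comparisons with CP25 did a tested gene of these lists pass an adjusted p of 0.05. KDM4D, KDM8 and HDAC4 fell under the filter at 2 h and were not tested there. HDAC9 was not tested in any comparison.

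None of the 37 members passed the test for CP25. With limma at an adjusted p under 0.05, 0% of 12365 tested genes were called at 0 h, 0.00851% of 11745 at 2 h, which is the single small RNA gene SNORD76, and 0% of 12183 for the difference of the effects between times. At an unadjusted p under 0.05, 88 genes passed at 0 h, 87 at 2 h and 153 for the difference. The members' log2 change by CP25 ran from −0.18 for ASH1L to 0.06 for KDM4B at 0 h and from −0.13 for SETD1B to 0.19 for KDM4C at 2 h. The smallest adjusted p of any member was 1 in each comparison. The 95% intervals bound what could have been missed: they excluded a 2-fold change for all 37 members in all 3 comparisons. A 1.5-fold change was excluded for 36, 37 and 36 members at 0 h, at 2 h and for the difference, and a 1.25-fold change for 30, 27 and 17. Over all tested genes, 1.5-fold was excluded for 95.6%, 96.3% and 86.7%, and 1.25-fold for 71.9%, 67.1% and 31.0%. EZH1 was the member whose interval reached 1.5-fold at 0 h and for the difference. With the replicate number as a block, 1.5-fold was excluded for all 37 members in each comparison and 1.25-fold for 36, 36 and 34.

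The directions of the members stand beside those of all genes. Members with a change below 0 numbered 26 of 37 at 0 h, where 52.4% of all tested genes were below 0, and 18 of 37 at 2 h, where 46.6% were. Libraries of CP25 and vehicle did not overlap for 2 members at 0 h, KDM3B and KDM5A, both lower in CP25, against 2.89% of genes. No member was higher without overlap at 0 h, against 1.21% of genes. At 2 h none was lower without overlap, against 1.76%, and KDM4C and SETDB2 were higher, against 2.46%. The difference of effects was above 0 for 23 of 37 members, against 53.6% of genes. DOT1L had the smallest unadjusted p at 0 h, with a log2 change of −0.14 and an adjusted p of 1 by limma.

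KDM4C had the smallest unadjusted p at 2 h and for the difference. It read 5.78, 5.94 and 6.10 FPKM in vehicle at 0 h and 5.25, 4.51 and 5.28 FPKM at 2 h. With CP25 it read 5.85, 5.79 and 5.72 FPKM at 0 h and 6.22, 5.66 and 5.65 FPKM at 2 h. Every CP25 library at 2 h lay above every vehicle library at 2 h, while at 0 h the treatments overlapped. The log2 change was −0.03 ± 0.06 at 0 h and 0.19 ± 0.09 at 2 h (SE, 3 libraries per group), and limma gave an adjusted p of 1 for each. The difference was 0.22 with a 95% interval of 0.01 to 0.43 and an adjusted p of 1 by limma. KDM4C was the 1 member of 37 with an unadjusted p under 0.05 for the difference, against 1.26% of all genes. It thus did not pass the adjustment over all genes. Leaving out 1 library gave differences of 0.16 to 0.25. In the authors' deposited table, no member had a p under 0.05, against 0.69% of all tested genes at 0 h and 0.44% at 2 h. The smallest p-values of members there were 0.0558 for ASH1L at 0 h and 0.0953 for KDM4C at 2 h.

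For the 5 mRNAs below −1, limma called no difference between CP25 and vehicle. At 2 h the log2 change by CP25 was 0.03 ± 0.10 for JMJD1C, −0.02 ± 0.09 for KDM6A, −0.11 ± 0.10 for KDM2A, −0.06 ± 0.12 for SETD1A and −0.13 ± 0.12 for SETD1B (SE, 3 libraries per group). The difference between the effects at 2 h and 0 h lay between −0.24 and 0.40 for JMJD1C and between −0.28 and 0.40 for KDM6A as 95% intervals. For SETD1B the interval was −0.39 to 0.37, for SETD1A −0.33 to 0.35 and for KDM2A −0.26 to 0.24. With the replicate number as a block the intervals were narrower, at −0.11 to 0.13 for SETD1A and −0.14 to 0.12 for KDM2A. All 5 intervals of the difference include 0 in either fit. With the block, the intervals at 0 h of ASH1L, DOT1L, EZH1, KDM2A and SETD5 lay below 0, that of KDM2A at −0.18 to −0.02. Each had an adjusted p of 0.707 by limma, and 857 of 12365 tested genes had an unadjusted p under 0.05. At 2 h the blocked interval of KDM4C lay above 0, where 814 of 11745 genes had such an unadjusted p. For the difference those of ASH1L and KDM4C did, where 1284 of 12183 genes had one.

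**Figure D5:**
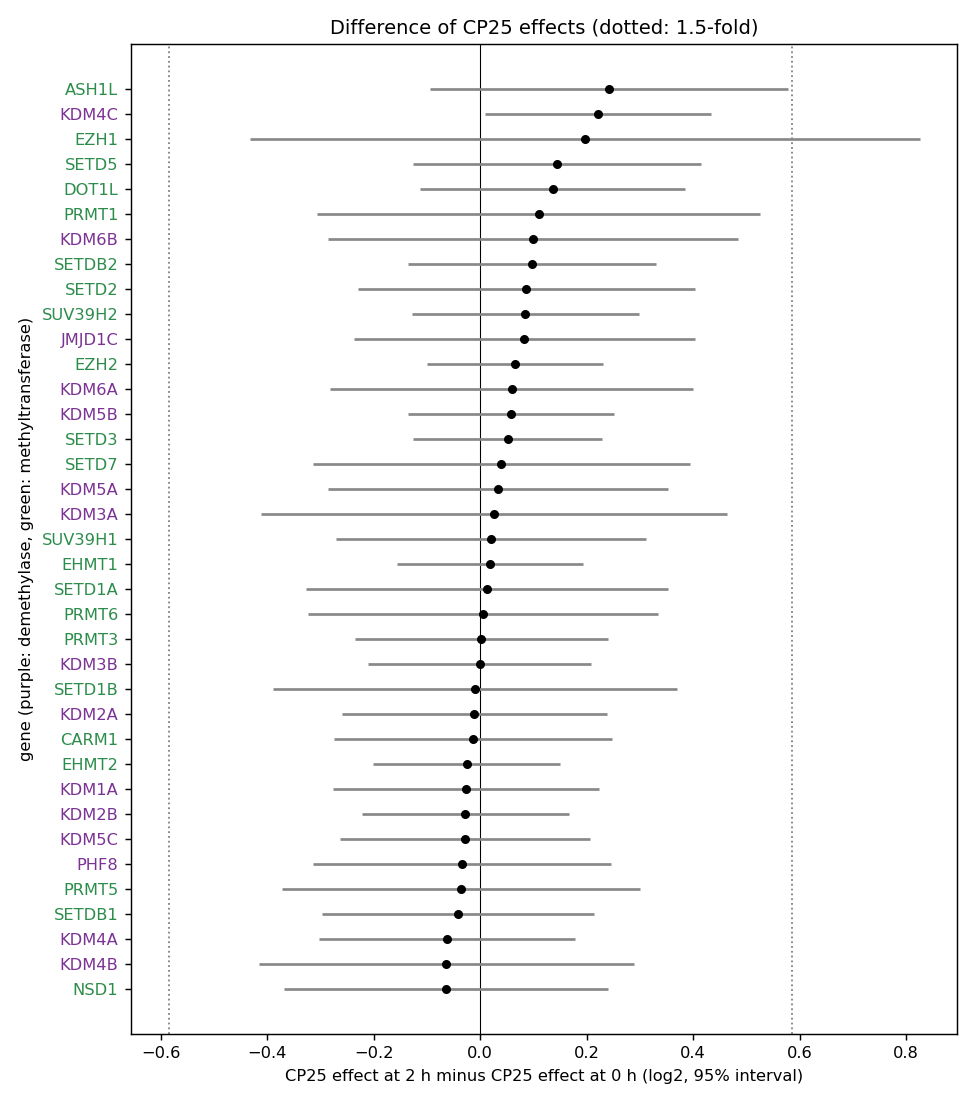
Difference of the CP25 effects, 2 h minus 0 h, on the log2 scale for each member, with 95% limma intervals from all 12 libraries; dotted lines mark a 1.5-fold difference. In this fit, without the replicate block, KDM4C alone has an interval that excludes 0, from 0.01 to 0.43, and its adjusted p is 1. EZH1 alone reaches past 1.5-fold. With the block the interval of ASH1L excludes 0 as well.

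Single libraries also set part of the spread at 2 h. Of the 3 vehicle libraries at 2 h, replicate 2 held the highest value of 22 of 37 members and replicate 1 the lowest of 25. In CP25 at 2 h, replicate 2 held the highest of 23 and replicate 1 the lowest of 20. Over all tested genes replicate 2 was the highest in 40.7% and 40.8% of genes. The share of all genes lowest in replicate 1 was not computed. The median deviation of replicate 1 from its group mean, in log2(FPKM + 1), was −0.08 in vehicle and −0.06 in CP25 for members. For all tested genes it was −0.01 in each. The values per library above therefore move together within a group for many members, among them SETD7 and PHF8, with replicate 2 the highest at 2 h in both treatments.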

How the data were processed

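Gene expression was measured as poly(A) RNA in 12 libraries. Per the file headers, the authors deposited FPKM per library, 1 table per time, plus, for CP25 against vehicle, group means in FPKM and a p-value per gene. The submitters' processing notes name Bowtie2 2.2.3, Trimmomatic 0.36, CASAVA 1.8.2 and the hg19 build; the program that computed FPKM is not given in the sources used here. Depth was estimated from the steps between low FPKM values.

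Genes averaging 1 FPKM or more over the libraries of a fit were tested on log2(FPKM + 1) with limma 3.58.1 in R 4.3.3 (trended variances, Benjamini-Hochberg at 0.05): within each time, and as an interaction over 12 libraries. A ratio of 2 h to 0 h is not tested, and paralog ratios were tested with Python 3.11.15. The fits were tested on simulated data. Members and lists were chosen with earlier results of these data known. Values per library are given for the 3 lowest and 3 highest mean ratios per class and for the smallest limma p per comparison; KDM3B, KDM6B and others appear with their families, and from each list the lowest and highest are named. Sequence features come from 1 GENCODE 29 transcript per gene, the principal one with the longest coding part. Replicate numbers were checked for pairing: same-numbered libraries of vehicle and CP25 correlated, as deviations from the group mean across genes, at 0.26, −0.01 and 0.12 at 0 h, which does not pair them, and at 0.35, 0.45 and 0.15 at 2 h, which does by the rule that all exceed 0.1. That pairing comes from the data alone. Libraries of unlike number correlated at −0.22 to 0.13 at 0 h and at −0.44 to 0.11 at 2 h. Alternatives were a pseudocount of 0.1, no filter, median-centred and quantile-normalized libraries, a replicate block, the authors' p-values and each library left out. SNORD76, KDM4D, KDM8, MLL, MLL3, SETMAR, PRMT2, PRMT7, PRMT10, ATF7IP, HDAC1, HDAC2, HDAC4 and HDAC9 were named after their values were seen.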

Additional observations from a re-analysis of the deposited data

How the results depend on the processing

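Neither the main comparison nor any alternative called a member. With the replicate block, limma called 0 genes at 0 h, 1 at 2 h and 0 for the difference of the effects, the same counts as without it, while the genes at an unadjusted p under 0.05 went from 88 to 857, from 87 to 814 and from 153 to 1284. The smallest adjusted p of a member with the block was 0.707 at 0 h, 0.716 at 2 h and 0.383 for the difference. The authors' p-values, adjusted here, called 0 genes at 2 h. Leaving out 1 library gave 1 to 4 genes at 0 h, 1 to 7 at 2 h and 0 to 3 for the difference. The most at 0 h came without CP25 replicate 1 (4), the most at 2 h without CP25 replicate 2 (7) or replicate 3 (5).

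Centring libraries on their medians moved the demethylase median ratio to 0.042 in vehicle and 0.022 in CP25, and that of the methyltransferases to 0.12 and 0.10; the shift of all genes moves them all alike. Leaving out 1 library gave −0.30 to −0.19 for the methyltransferases in vehicle and −0.29 to −0.18 in CP25, with −0.31 to −0.25 and −0.35 to −0.26 for the demethylases. Of the values per class or comparison, 110 alternatives stayed within the spread or count limit and 25 moved. For single genes 289 stayed and 30 moved. The counts that stayed include the ratios of 2 h to 0 h and the medians without a filter and with the replicate block. Neither setting enters these values, so they equal the main ones by construction. A change of sign was looked for only in the limma changes of DOT1L and KDM4C, and there was none. With 1 library left out, the ratios of EZH1 and PHF8 in vehicle, KDM4C in CP25 and KDM3A in both did change sign. Exchanging same-numbered vehicle and CP25 libraries together, an alternative added after the data were seen, left 0 paralog pairs, since its smallest p cannot pass. FPKM without counts limits precision to that of 3 libraries per group.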
